A study of Mus musculus with 12 samples.

Results

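The comparison described here is the knockdown of Six4 in C3H/10T1/2 cells that had not been converted to muscle. It rests on 6 of the 12 arrays of the series, 3 of shSix4 cells and 3 of shLuc cells, all infected with the empty vector. C3H/10T1/2 is a mouse embryonic fibroblast line. Cells with a stable short hairpin against Six4 (shSix4) were set against cells with a stable control hairpin (shLuc). All 6 samples carried the empty pBABE retroviral vector, which delivers no MyoD, and all had spent 24 h in differentiation conditions, per the labels. The other 6 arrays hold the same lines after infection with pBABE-MyoD and served for comparison. Each hairpin was carried by a single stable line, so the hairpin and the history of its line cannot be told apart. The labels do not state that replicates were separate cultures, and p-values therefore cover no more than the spread seen among these samples, part or all of which may be technical.

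Six4 is a homeodomain transcription factor of the sine oculis homeobox family. These proteins bind DNA motifs known as MEF3 sites and act with Eya proteins as coactivators, and in muscle they work beside MyoD and its relatives. C3H/10T1/2 fibroblasts express skeletal muscle genes only weakly until MyoD is supplied, so the empty-vector cells give the differences of the knockdown line in a fibroblast transcriptome.

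Each replicate number was a slide, and each slide held 1 array of every group, always at the same position, so position and group cannot be told apart. Differences were therefore read within slides, as shSix4 minus shLuc on the log2 scale after each array's 75th percentile was subtracted. Between 22318 and 27141 probes were well above background per array. The 75th percentile of log2 signal ranged from 8.59 to 9.83. The lowest belonged to shLuc replicate 2, and the difference on its slide had the widest spread over genes, with an SD of 0.671 against 0.430 and 0.450 on slides 1 and 3. Pearson's r was 0.960 to 0.993 for pairs of arrays within a group and 0.965 to 0.991 for pairs between the groups. Across genes, the slide differences correlated weakly, at 0.143 for slides 1 and 2, 0.226 for slides 1 and 3 and 0.387 for slides 2 and 3, as a description over genes that share arrays' normalization.

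The arrays had the markers of fibroblasts. Of 17 fibroblast markers, 15 were well above background on all 6 arrays, and their summed signal, in units of each array's 75th percentile, was 1339 to 2518 in shLuc and 1531 to 1759 in shSix4 cells. Leukocyte markers summed to 0.986 to 1.33 in shLuc and 1.30 to 1.62 in shSix4 cells, endothelial markers to 2.77 to 4.05 and 3.04 to 5.22, and epithelial markers to 0.486 to 0.591 and 0.313 to 0.598. Ptprc, Pecam1, Cdh5 and Epcam, which define those cell types, were above background on no array. These are bulk samples, in which fewer cells of a type and less RNA per cell cannot be told apart.

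Six4 itself was lower on every slide, but the difference did not pass the test. Its level, in log2 relative to the 75th percentile, was -2.55, -2.82 and -1.58 in shLuc replicates 1 to 3 and -4.03, -2.94 and -2.76 in shSix4 replicates 1 to 3. The within-slide differences were -1.48, -0.12 and -1.18, and the groups overlapped because shSix4 replicate 3 (-2.76) lay above shLuc replicate 2 (-2.82). The fitted difference was -0.92 ± 0.26 (limma SE, n = 3 per group), with an adjusted p of 0.161. With MyoD the same hairpin gave -1.18, with an adjusted p of 0.0385. Of its relatives, Six2 differed by 0.08 and Six5 by 0.21, and Eya3 and Eya4, of the coactivator family, by -0.03 and 0.26. None of these 4 passed the test, and 0 of the 6 measured members of the list of Six4 relatives and their Eya and Dach cofactors were called.

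Of 12300 genes tested with limma, 61 fell and 17 rose at an adjusted p under 0.05 (Benjamini-Hochberg over all genes, replicate number as a block). These are 0.496% and 0.138% of genes, or 0.634% in either direction, while 1828 genes had an unadjusted p under 0.05. The median difference over all genes was -0.03. Among those that fell 38 did so by at least 2-fold, and among those that rose 10 did. All 78 had the same sign on the 3 slides, and in 65 of them (49 lower, 16 higher) the groups did not overlap. Over all genes, 18.2% were lower on every slide and 14.4% higher on every slide, 32.7% in all. Groups were separate for 5% of genes in the lower direction and 3.24% in the higher. A difference of at least 1 on each slide was found for 37 lower genes (0.301%) and 14 higher genes (0.114%), of which 30 were among the 78.

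The number of calls depended on the fit. Without the block, 6 genes were called lower and 1 higher, all among the 78: Slc2a4, Me1, Gdf6, Svop, Cd24a and Pglyrp2 fell and Kirrel3 rose. Fitted on the 6 empty-vector arrays alone, with fewer residual degrees of freedom, no gene was called, with 1257 at an unadjusted p under 0.05. Without the dim array, shLuc replicate 2, 12 genes were called lower and 5 higher. Without shSix4 replicate 1 the counts were 240 and 27, and without slide 1 they were 382 and 66. No gene passed without slide 2 (1127 at an unadjusted p under 0.05) or without slide 3 (1019), or after normexp background correction (565). Under every alternative that used the scanner files' processed signal, those of the 78 that were tested kept their sign. In the authors' table all but 1 of the 17 tested did, the exception being Rprd1a at 0.025. Of the 78 genes, 68 lost their call in at least 1 of the 6 fits that each left out 1 array. The 10 that passed in all 6 of these fits were Slc2a4, Gdf6, Me1, Gpc3, Pglyrp2, Tmem18 and Asb9, which fell, and Igsf1, Naip2 and Kirrel3, which rose.

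**Figure D1:**
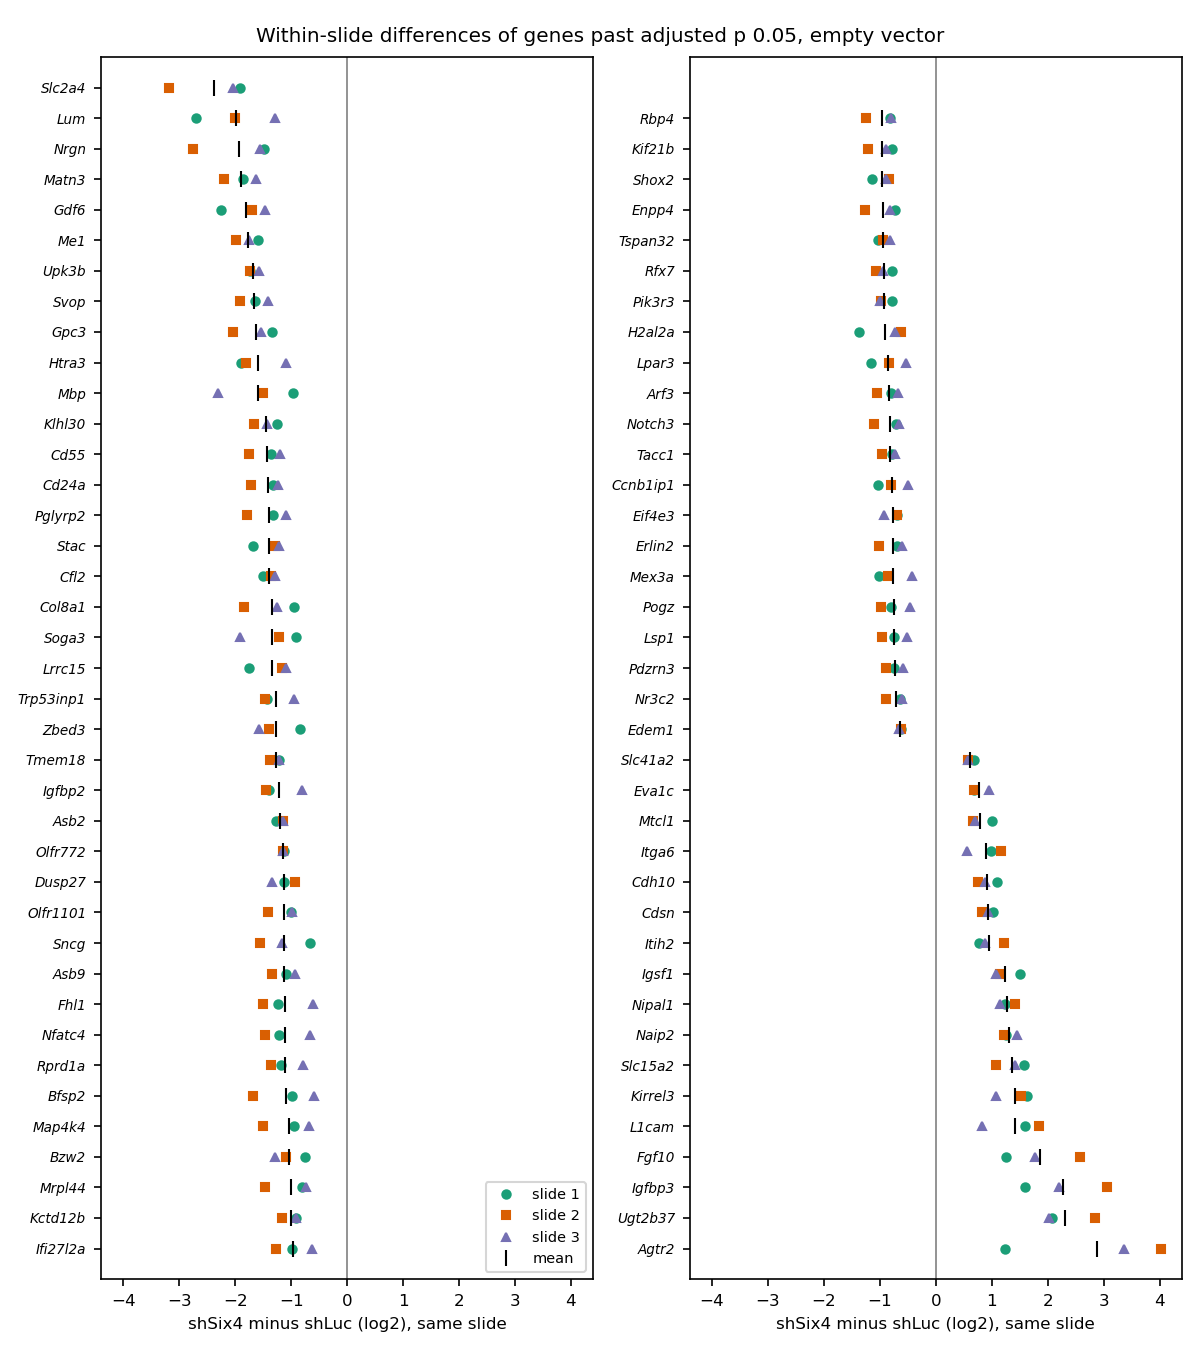
Within-slide differences, shSix4 minus shLuc in log2, of the genes past an adjusted p of 0.05, ordered by their mean (1 of the 78 is not drawn). Circles, squares and triangles stand for slides 1, 2 and 3 and the vertical tick for the fitted mean; no gene drawn has points on both sides of 0, and the widest spread belongs to Agtr2, at 1.24, 4.03 and 3.36.

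Because proteins of the Six4 family bind MEF3 sites, the RefSeq promoter windows (GRCm38.p6, 250 bases before to 50 after each gene's start) were searched on both strands for the letters TCAGGTT, the core of that motif. The motif was found in 2 of 43 called-lower genes with a window, Bfsp2 and Nrgn (4.65%), and in 1 of 15 called-higher genes, Itih2 (6.67%). It was in 386 of 9875 tested genes with a window (3.91%) and in 4.73% of all genes in the table. The E-box letters CANNTG, the kind of site that MyoD binds, were found for 72.1% of the lower, 80% of the higher and 68.1% of the tested genes with a window. These shares are descriptions of the windows, not of binding. The stretches around the matches are shown because they are the only TCAGGTT matches among the called genes, with that of the Six4 promoter itself; capitals mark the match, with AACCTGA as its reverse complement. They lie at chr12:73113325-73113353 (Six4), chr9:37552721-37552749 (Nrgn), chr9:103449210-103449238 (Bfsp2) and chr2:10130736-10130764 (Itih2), all on the minus strand, and read 5′ to 3′ on that strand. Relative to the gene's start the match begins at -97 in Six4, at 8 in Nrgn, at -51 in Bfsp2 and at -70 in Itih2.
Six4: ggcctgggggaAACCTGAtcggccagatc
Nrgn: ggccgcagggcTCAGGTTacattcgcaag
Bfsp2: tcctgtgcccaAACCTGAagctgaccaat
Itih2: acccccacagcTCAGGTTtgagttccaga

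The lowest difference among the called genes was that of Slc2a4, and the smallest p-value that of Me1, both genes of metabolism. Slc2a4, which encodes the insulin-responsive glucose transporter GLUT4, read -4.59, -4.07 and -4.57 on the shLuc arrays and -6.50, -7.26 and -6.61 on the shSix4 arrays. It was well above background on all 3 shLuc arrays and on no shSix4 array, so its fall is a bound, at least 1.88-fold (fitted difference -2.38 ± 0.22, adjusted p 0.00456). Such a bound sets the brighter group's mean against the lowest signal well above background on each dim array, or the gene's own where that is higher. Me1, the cytosolic malic enzyme that makes NADPH, stood at 2.51, 2.41 and 2.40 in shLuc and at 0.92, 0.42 and 0.64 in shSix4 cells. The gap between the groups was far wider than the range within either, and the difference of -1.78 ± 0.14 had the smallest adjusted p of any gene in this comparison, 0.00349. Of 24 measured genes of glucose uptake and glycolysis, 1 fell and 0 rose, with a median of -0.08. Eno3, the muscle enolase, had a difference of -0.64 (adjusted p 0.218) and Pfkp, a phosphofructokinase, 0.34 (0.336). Among 29 measured Nrf2 antioxidant targets Me1 alone fell and 0 rose, with a median of 0.05, and the glutathione transferases Gsta1 and Gsta2 had differences of 0.88 (adjusted p 0.0954) and 1.21 (0.195).

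**Figure D2:**
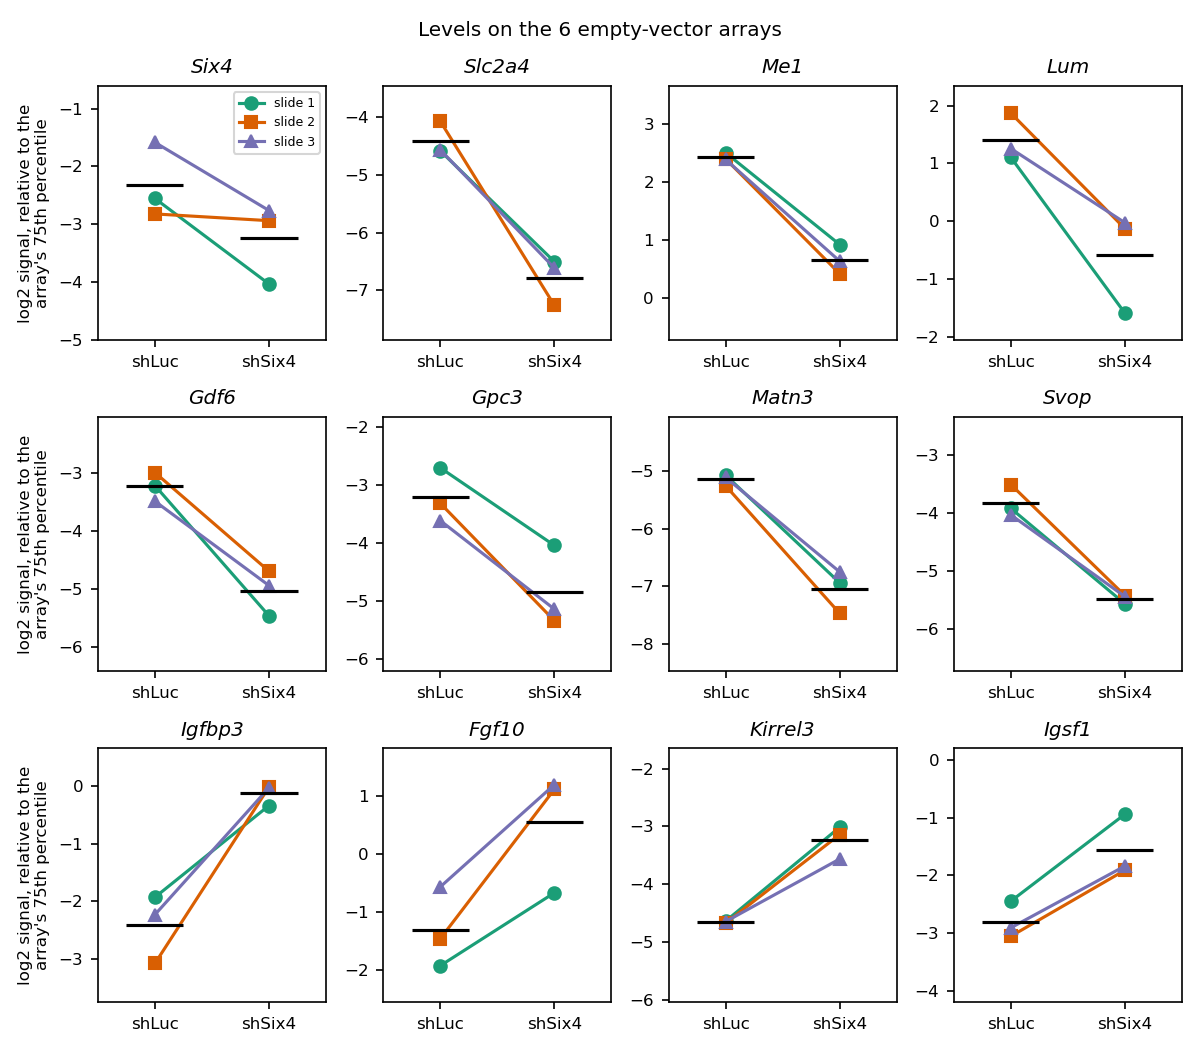
Levels of Six4 and 11 called genes on the 6 empty-vector arrays, in log2 relative to each array's 75th percentile; lines join the arrays of a slide and short black bars are group means. Among the called genes drawn, the groups overlap in Fgf10 alone. They also overlap in Six4, which differs by only -0.12 on slide 2. Slc2a4, Svop and Matn3 were well above background on no shSix4 array, so their drawn gaps are not measured sizes.

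Lum, Matn3, Htra3, Col8a1 and Gpc3, genes of the extracellular matrix, its turnover and the cell surface, fell. Lum, the collagen-binding proteoglycan lumican, had levels of 1.1, 1.87 and 1.26 in shLuc cells and of -1.59, -0.13 and -0.03 in shSix4 cells. It fell on each slide, most on slide 1 (-2.69), by -1.99 ± 0.28 on the fitted scale (adjusted p 0.0211). Matn3, matrilin-3 of cartilage matrix, was above background on every shLuc array and no shSix4 array, at -5.08, -5.26 and -5.12 against -6.94, -7.47 and -6.75. Its fall is at least 1.13-fold (adjusted p 0.0229). Htra3, a secreted serine protease, fell by 1.60 (adjusted p 0.0283), but its other probe read -0.18 (adjusted p 0.647). Col8a1, a short-chain collagen, fell by 1.35 (adjusted p 0.0173), with -1.45 on its other probe (adjusted p 0.110). Gpc3, a heparan sulfate proteoglycan of the cell surface, stood at -2.70, -3.31 and -3.61 in shLuc and at -4.04, -5.34 and -5.14 in shSix4 cells. Its groups did not overlap and it fell by 1.63 (adjusted p 0.00456), with 2 of 3 shSix4 arrays above background.

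The matrix lists held few calls, and their medians were close to that of all genes. Of 25 measured collagen chains 1 fell and 0 rose, with a median of 0.01, and of 47 other matrix genes 1 fell and 0 rose, with a median of -0.04. In the fibroblast list of 16 measured genes Lum fell, 0 rose, and the median was -0.02, or 0.37 after normexp correction. Of 19 bone and cartilage genes Matn3 fell and 0 rose (median 0.10, or -0.44 after normexp correction), with sums of 62.1 to 64.0 in shLuc and 67.7 to 112 in shSix4 cells, and of 18 adipocyte genes 0 were called (median 0.10). Decorin, Dcn, a relative of lumican, had levels of 1.99, 2.54 and 2.50 against 0.76, 1.68 and 1.74, so the groups were apart, yet its difference of -0.95 missed the threshold (adjusted p 0.0603). Mfap4, a microfibril protein, had a larger mean difference, -2.12, with slides at -3.35, -1.87 and -1.13 (adjusted p 0.0611). Of 25 measured metalloproteinases and their inhibitors 0 were called, with a median of -0.11. Itga6, the laminin-binding integrin alpha6, was the only call among 24 integrins and laminins. It rose from -1.47, -2.07 and -1.65 to -0.48, -0.90 and -1.08, by 0.90 ± 0.16 (adjusted p 0.0431), whereas Lama5, a laminin chain, had a difference of -1.62 that did not pass (adjusted p 0.0563).

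Secreted signals and their receptors moved in both directions. Gdf6, a ligand of the bone morphogenetic protein group, fell from -3.21, -2.99 and -3.48 to -5.46, -4.69 and -4.94. The groups were apart on every slide, and the difference was -1.81 ± 0.18 (adjusted p 0.00456), with 2 of 3 shSix4 arrays above background. It was the only call among 44 measured genes of the TGF-beta and BMP list, whose median was -0.02. Fgf10, a mesenchymal fibroblast growth factor, rose from -1.93, -1.47 and -0.57 to -0.67, 1.12 and 1.20. Here the groups overlapped, because the slide 1 value of shSix4 cells lay below the highest shLuc value, but each slide's difference was at least 1.26 and the fitted one was 1.87 ± 0.27 (adjusted p 0.0234). Of 33 EGF and FGF ligands and receptors 1 rose and 0 fell. Betacellulin, Btc, an EGF receptor ligand, had a difference of 1.1 (adjusted p 0.0823).

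The insulin-like growth factor axis held a call in each direction among its 14 measured genes. Igfbp3, a binding protein that carries insulin-like growth factors, stood at -1.93, -3.07 and -2.23 in shLuc and at -0.34, -0.02 and -0.03 in shSix4 cells. It rose by 2.28 ± 0.26 (adjusted p 0.0082), with no overlap between the groups. Igfbp2, another binding protein, fell by 1.22 (adjusted p 0.0165), from -1.60, -1.43 and -1.72 to -3.00, -2.88 and -2.53. The list's median was 0.08, and Igf1r, the receptor, had a difference of -0.60 (adjusted p 0.152). Agtr2, the type 2 receptor of angiotensin II, had the highest fitted difference among the called genes. It was near background in shLuc cells (-5.45, -6.67 and -5.30, well above it on 1 of 3 arrays) and clearly measured in shSix4 cells (-4.21, -2.64 and -1.94). Its 2.88 ± 0.52 passed by little (adjusted p 0.0492), since slide 1 gave 1.24 and slides 2 and 3 gave 4.03 and 3.36. Over the 19 alternatives it ranged from 0.18, after normexp correction, to 3.70 and passed in 6; it did not pass after quantile normalization (adjusted p 0.066) or in the authors' table (0.0619). Notch3 fell by 0.83 (adjusted p 0.0453), the only call among 19 Notch pathway genes. Of 36 Wnt pathway genes and 16 Eph receptors and ephrins 0 were called. Of the Eph and ephrin list 5 genes (31.25%) were lower on every slide and 0 higher, against 18.2% and 14.4% of all genes. Of the Wnt list 11 (30.6%) were lower and 4 (11.1%) higher. Some other lists without a call had similar or larger shares. For H3K27 methylation these were 35% lower and 15% higher, and for Hox genes 30.8% and 7.69%. For CDK inhibitors and the retinoblastoma family they were 40% and 10%.

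Kirrel3, L1cam, Igsf1, Cdh10 and Cdsn, which encode adhesion or surface proteins, rose, while the surface proteins Cd24a and Gpc3 fell. Kirrel3 stood at -4.64, -4.67 and -4.65 in shLuc and at -3.01, -3.14 and -3.56 in shSix4 cells. The shLuc arrays were nearly equal, all shSix4 arrays lay above them, and it rose by 1.41 ± 0.14 (adjusted p 0.00456). L1cam, a neural cell adhesion molecule above background on 2 of 3 shLuc arrays, rose by 1.42 (adjusted p 0.0384) and Igsf1 by 1.24 (adjusted p 0.00456). The other probe of Igsf1 read 0.69 (adjusted p 0.445). The cadherin Cdh10 and the desmosomal adhesion protein Cdsn rose by 0.91 and 0.93. Of genes of transport and detoxification, the peptide transporter Slc15a2 rose by 1.36, the magnesium transporter family member Nipal1 by 1.27, and Ugt2b37, a glucuronosyltransferase, by 2.31 (adjusted p 0.0082). The other probe of Slc15a2 read 0.21 (adjusted p 0.779). Nipal1 was well above background on 2 of 3 shLuc arrays and Ugt2b37 on 1 of 3. Naip2, a sensor of bacterial proteins, rose by 1.31 (adjusted p 0.00456), from -2.69, -2.47 and -2.32 to -1.44, -1.25 and -0.86. Ugt2b37 and Naip2 belong to families of near-identical genes, as do the called olfactory receptors Olfr772 and Olfr1101, so the probe's assignment is uncertain. Itih2, which binds hyaluronan, rose by 0.95. After normexp correction 5 of the 17 read below 0: Ugt2b37 at -0.16, L1cam at -0.18, Kirrel3 at -0.09, Nipal1 at -0.21 and Mtcl1 at -0.13.

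Several genes that fell are better known from nerve, muscle or epithelium than from fibroblasts. Svop, a transporter-like protein of synaptic vesicles, stood at -3.92, -3.51 and -4.04 in shLuc and at -5.57, -5.43 and -5.45 in shSix4 cells, a fall of at least 2.64-fold (adjusted p 0.01). Nrgn, neurogranin, whose promoter stretch is given above, fell at least 1.29-fold (adjusted p 0.0384) and Upk3b, a uroplakin, at least 1.28-fold (0.0431). Mbp, myelin basic protein, fell by 1.59 (adjusted p 0.0335) and Klhl30, a kelch family protein, by 1.45 (0.0151). Mbp was above background on 2 of 3 shSix4 arrays. These genes were dim in both lines, and the neural and glial list held no other call among 9 measured genes. Of the muscle-related genes, Cfl2, the muscle cofilin, fell by 1.39 from 1.13, 1.00 and 0.69 (adjusted p 0.035). Fhl1, a LIM protein abundant in muscle, fell by 1.11 from 5.74, 6.37 and 5.71 (adjusted p 0.0283), and Nfatc4, a calcineurin-regulated transcription factor, by 1.11 (0.0283). Stac, an adaptor protein of calcium channels, fell by 1.40 (adjusted p 0.0082) and was above background on 1 of 3 shSix4 arrays. Asb2, a ubiquitin ligase subunit, was above background on 1 shLuc array and no shSix4 array, and no fold is given for it. Cd24a, a surface glycoprotein, fell by 1.42 (adjusted p 0.0082), Pglyrp2, an amidase of bacterial peptidoglycan, by 1.40 (0.00456), and Tmem18 by 1.27 (0.00456), with -1.06 on its other probe.

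Skeletal muscle genes as a group were at low levels and gave no call. Of 41 measured genes of the sarcomere and contractile apparatus, 8 were below background in both groups and 0 were called. On every slide 11 (26.8%) were lower and 1 (2.44%) higher, against 18.2% and 14.4% of all genes. The median was -0.25, or -0.68 after normexp correction. The list summed to 30.1 to 51.6 in shLuc and 15.6 to 62.0 in shSix4 cells. Actn3, a sarcomeric actinin, had slide differences of -1.03, -1.58 and -0.95 (adjusted p 0.0945), with overlapping groups, and Tnnt1, slow troponin T, -0.96, -0.75 and -0.66 (0.435). Of 17 muscle transcription factors 0 were called, with a median of -0.12. Myog, the myogenin gene, was above background on 1 shLuc array and no shSix4 array.

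Smooth muscle and cell cycle genes showed the lowest list medians among lists with at least 10 measured genes, without a single call; this order holds for the processed signal, since after normexp correction the sarcomere list was lowest. Of 15 smooth muscle and myofibroblast genes 7 (46.7%) were lower on every slide and 0 higher, against 18.2% and 14.4% of all genes. Their median was -0.35, against -0.03 over all genes. Their sums overlapped, at 322 to 562 in shLuc and 238 to 578 in shSix4 cells, and after normexp correction the median was 0.00116. Cnn1, a calponin, stood at 0.37, 0.42 and -0.09 in shLuc and at -0.57, -2.57 and -2.39 in shSix4 cells (difference -2.08, adjusted p 0.0583). Its groups did not overlap, but slide 1 gave a smaller difference than slides 2 and 3. Mylk, myosin light chain kinase, had -0.84 (adjusted p 0.0643) and Smtn, smoothelin, -0.64 (0.152).

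The cell cycle genes divided by slide. Over 58 measured genes the median difference was 0.05 on slide 1, -1.34 on slide 2 and -1.38 on slide 3, and 0 genes were called although the fitted median was -0.85, or -0.63 after normexp correction. Their summed signal was 754, 592 and 433 on the shLuc arrays and 780, 201 and 205 on the shSix4 arrays. The shSix4 arrays of slides 2 and 3 were thus low, and that of slide 1 was not. Of the 58 genes, 19 (32.8%) were lower on every slide and 0 higher, against 18.2% and 14.4% of all genes. Slide 1 was scanned on another day than slides 2 and 3, per the file headers, and the part of this in the result was not tested. Cenpf, a centromere protein, followed this pattern, at 3.48, 3.61 and 3.14 against 3.23, 0.93 and 0.66 (adjusted p 0.146). Mki67, the proliferation marker, stood at 4.25, 4.24 and 4.16 against 4.35, 2.46 and 2.14 (adjusted p 0.278). Of 10 CDK inhibitors and retinoblastoma family genes 0 were called, and their slide medians were 0.10, -0.49 and -0.10. Among 28 p53 targets Trp53inp1, an autophagy and stress protein, fell by 1.28 (adjusted p 0.0105), with -1.33 on its other probe, and the median was -0.04.

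**Figure D3:**
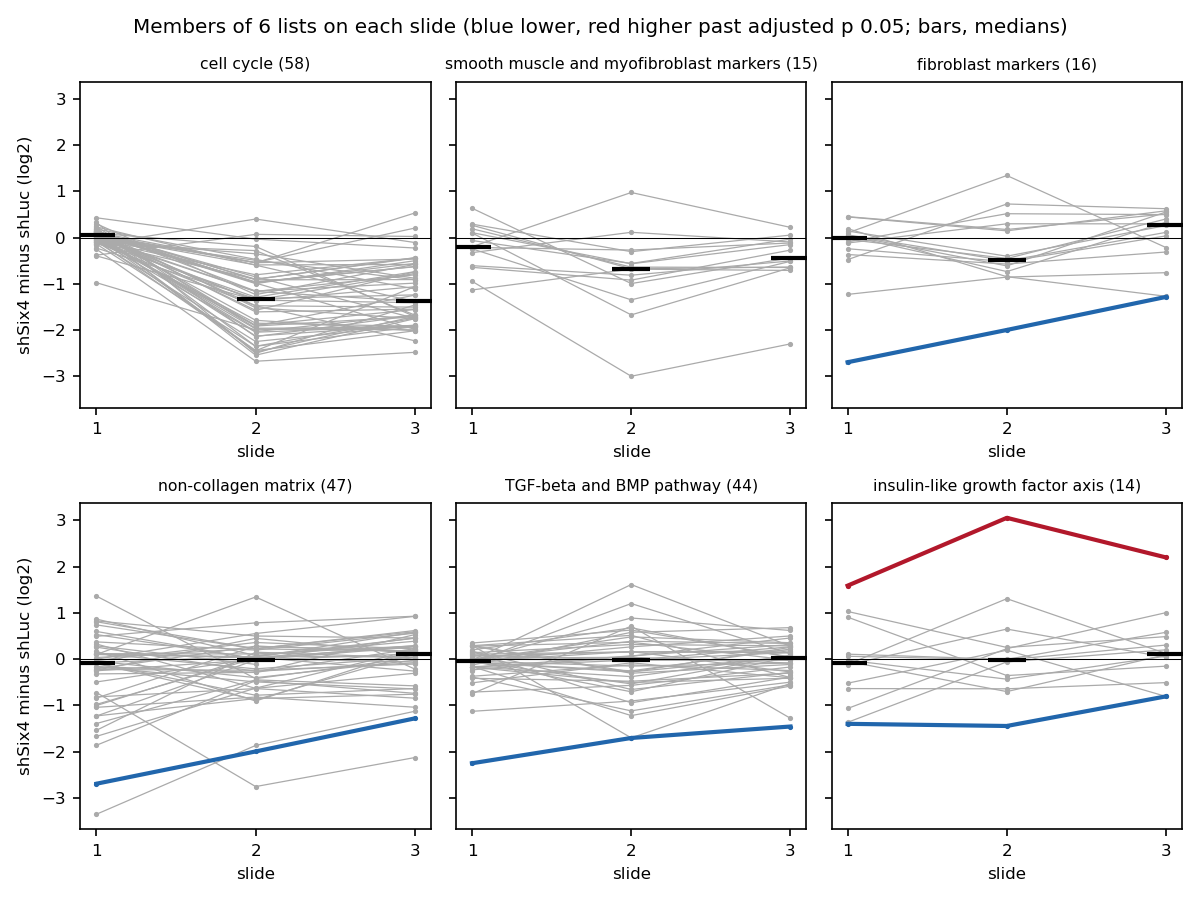
Members of 6 gene lists (panels, number measured in brackets) with their difference, shSix4 minus shLuc in log2, on each of the 3 slides. Grey lines are genes that did not pass the test, blue and red lines those that fell or rose, and black bars list medians; cell cycle genes lie near 0 on slide 1 (median 0.05) and well below it on slides 2 and 3.

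The stress, lipid, immune and respiratory lists gave 1 call in all. Of 35 genes of the unfolded protein and amino acid stress response 1 fell, Edem1, which takes part in degradation of misfolded glycoproteins, by 0.63 (adjusted p 0.0431), with its other probes at 0.09 and -0.20. Of 22 heat shock genes and 33 genes of sterol and fatty acid synthesis 0 were called. Of 34 interferon response genes 0 were called, and their medians of -0.56, -0.09 and 0.07 differed by slide. Of 25 chemokines and cytokines 0 were called. Ccl7, a monocyte chemokine, had differences of 1.24, 1.66 and 1.49 (adjusted p 0.0715), and Cxcl12, a stromal chemokine, of -0.93, -1.81 and -0.78 (0.0603), with no overlap of the groups in either. Of 43 respiratory chain genes 0 were called. On every slide 2 (4.65%) were lower and 3 (6.98%) higher, against 18.2% and 14.4% of all genes. In the lists of 20 genes of H3K27 methylation and 13 Hox genes 0 were called.

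**Figure D4:**
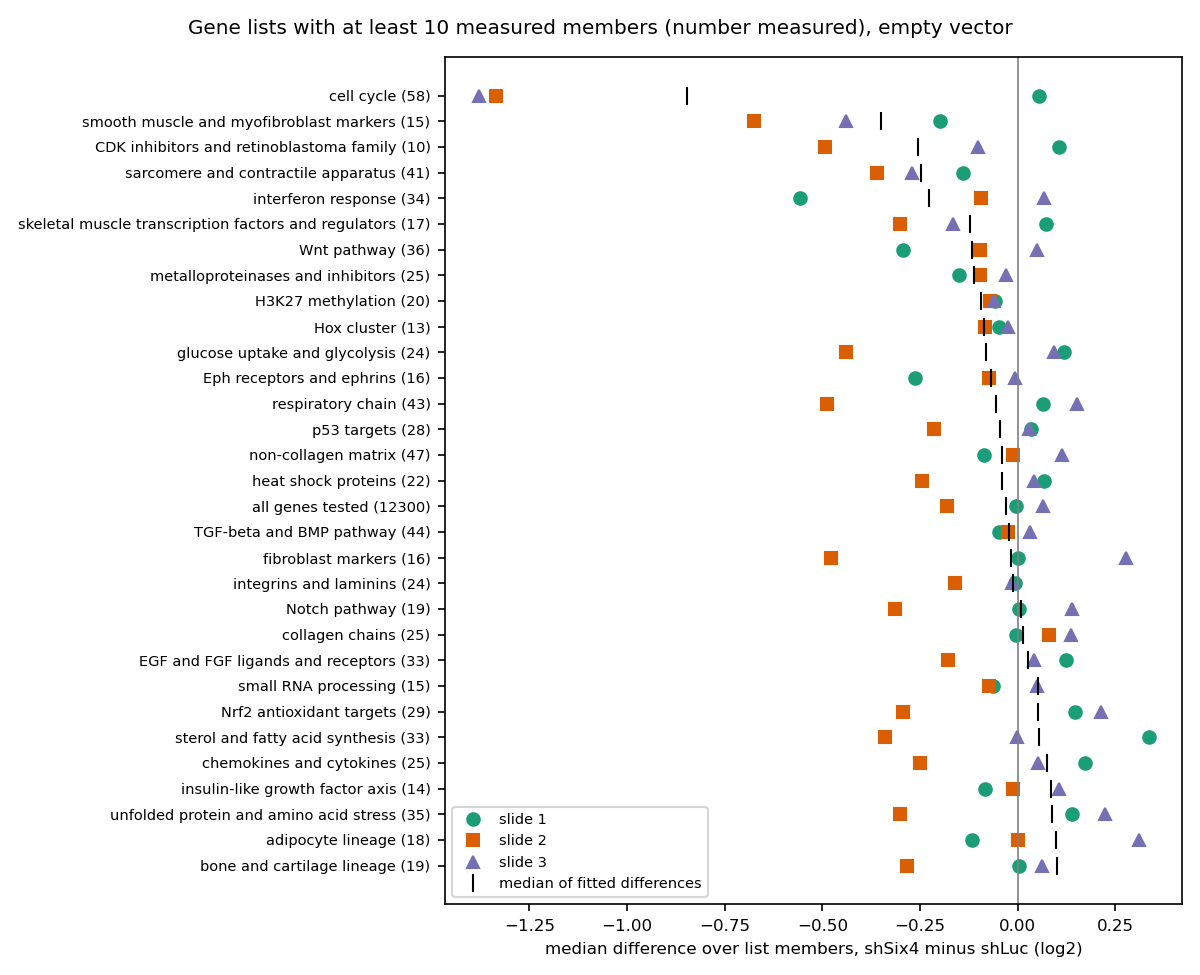
Median difference over the members of each gene list with at least 10 measured genes, shSix4 minus shLuc in log2, on slides 1 to 3 (symbols), with the median of the fitted differences (tick); the number measured is in brackets. The cell cycle list is lowest, with medians of 0.05, -1.34 and -1.38, and all genes tested have medians of -0.003, -0.18 and 0.07.

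Of the 78 genes, 24 had a further probe above background. Of these 30 other probes, 26 had the sign of the chosen probe and 5 passed the threshold. The 4 with the other sign were single probes of Rprd1a, Map4k4, Erlin2 and Edem1. Other and unnamed probes were tested in a separate fit of the same model to the 24000 kept probes, adjusted over those probes. In that fit, among 6181 probes with no gene name, 25 were lower and 4 higher at an adjusted p under 0.05. The lowest was A_51_P465758, with a difference of -2.01 and slides at -2.65, -2.15 and -1.23.

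Most of the 78 genes differed in the same direction when the same lines carried MyoD. Those arrays are different arrays of the same lines, in a fit that shares its estimate of spread. Of the 61 genes that fell without MyoD, 55 were lower on all 3 slides with MyoD, against 19% of all genes, and 42 were called lower, which is 68.9% of the 61 and 12.7% of the 330 genes called lower with MyoD (2.68% of all genes). Of the 17 that rose, 16 were higher on all 3 slides with MyoD, against 23% of all genes, and 15 were called higher, which is 88.2% of the 17 and 7.39% of the 203 called higher with MyoD (1.65%). No gene was called in opposite directions. The median differences with MyoD were -0.81 for the 61, beside -1.12 without it, and 1.36 for the 17, beside 1.27 without it. Agtr2 differed by 3.55 with MyoD, Ugt2b37 by 2.52, Fgf10 by 2.13, Matn3 by -2.36, Slc2a4 by -1.81 and Me1 by -1.65. Across 12144 genes with all values, the differences without and with MyoD correlated at r 0.472 (rho 0.484), as a description over genes.

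No gene's knockdown difference was shown to depend on MyoD. The interaction called 0 of 12300 genes (0%) with limma, while 746 had an unadjusted p under 0.05. It called 3 with the block as a random effect, 2 after quantile normalization and 1 in the authors' table. The smallest adjusted p of 0.138 belonged to Stac, Ccl5 and Bspry. Stac, above background on 1 of 3 shSix4 arrays without MyoD, fell by 1.40 without MyoD and had 0.38 with it. Ccl5, a T cell chemokine, had 0.53 without MyoD and 2.43 with it, and Bspry 0.03 and -1.64. Igfbp3, which rose by 2.28 without MyoD, had 0.58 with it (adjusted p 0.26), and its interaction did not pass either.

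**Figure D5:**
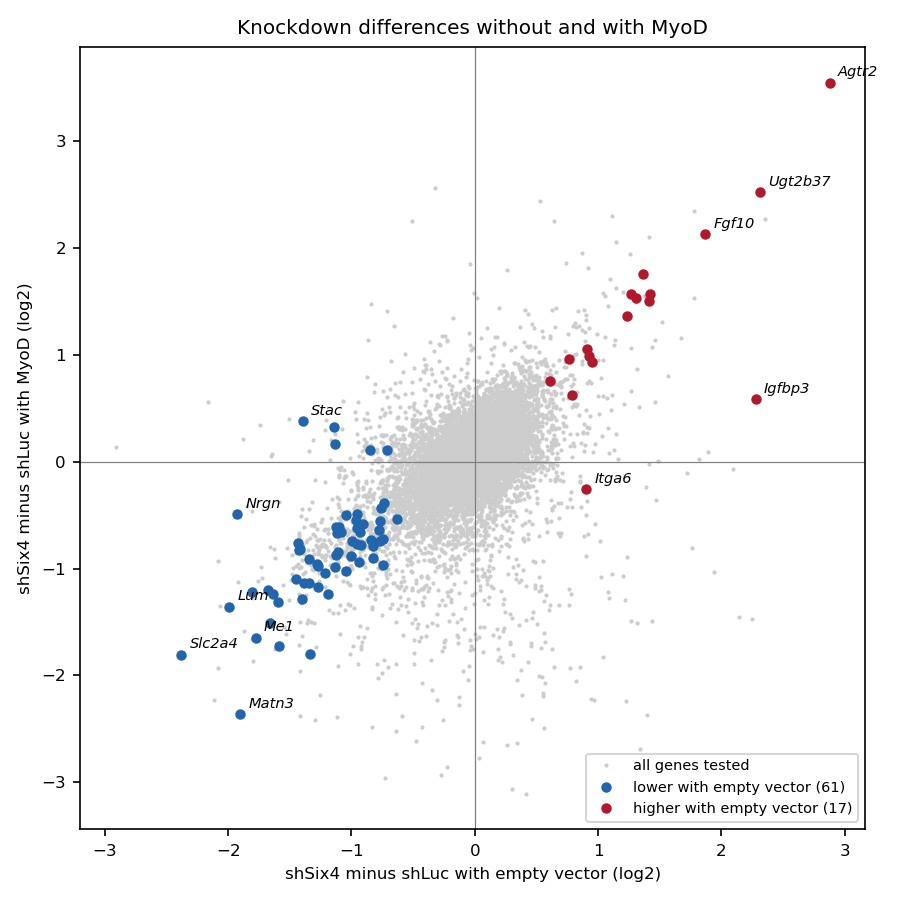
Knockdown difference, shSix4 minus shLuc in log2, with empty vector (x axis) and with MyoD (y axis) for all genes tested (grey) and for the 61 genes that fell (blue) and 17 that rose (red) with empty vector. Most coloured points lie in the lower left and upper right. With MyoD 56 of the 61 were lower and 16 of the 17 higher in the mean. Stac and Itga6 are among the points on the other side of 0 with MyoD, at 0.38 and -0.26.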

How the data were processed

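Each deposited scanner file holds the Cy3 intensity of 45018 spots of 1 array, extracted with Agilent Feature Extraction (version 11.5.1.1 per the file headers, although the submitters' processing notes give 10.5.1.1). Per the file headers, its processed signal has the background removed and is not levelled across arrays. A deposited table of log2 values was also given by the authors. Its name holds the word quantile, but the sources used here do not describe the normalization further. The authors' table followed the processed signal (r 0.9993 to 0.9998), had column medians of 8.66 to 8.72, held 3867 of the 41174 probes, and served as an alternative.

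Control and outlier-marked spots were left out and spots of a probe averaged. No spot was saturated. From log2 signal each array's 75th percentile over non-control probes was subtracted. Kept were the 24000 probes that some group had well above background on each of its 3 arrays; they were named through a RefSeq table (GRCm38.p6), which left 16330 of 41174 probes unnamed. The probe with the highest mean stood for each gene, giving 12300 genes. Precision is limited by how few arrays there are.

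The test was limma 3.58.1 (R 4.3.3), with 4 group means over 12 arrays, replicate number as a fixed block, and Benjamini-Hochberg adjustment over all genes (threshold 0.05). Adjusted p-values in the text are from this fit and errors are its standard errors. For further probes of called genes and for unnamed probes, the same model was fitted to the 24000 kept probes and adjusted over those. The scanner headers put the replicates on slides 1, 2 and 3. Same-numbered arrays deviated together from their group means (r 0.713 to 0.819, 0.278 to 0.670 and 0.509 to 0.689 on slides 1, 2 and 3). Groups came from the sample titles; the description field, which names another cell line, contradicts the others and was not used. 56 genes had a value missing on an empty-vector array through outlier marks; the fit drops such values. The script was tested on simulated data. Alternatives covered the block, scaling, background, filter, probe choice, the authors' table and left-out arrays.

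Named were Six4, the 12 called genes with the lowest and the 12 with the highest difference, members of the gene lists that were called (up to 4) or had 1 sign on all slides (up to 3), and the smallest interaction p-values. Other called genes, and single list members such as Mki67, Myog and Igf1r, were named after their values were seen. A few genes are not reported here by name. The members and lists were chosen with earlier results of these data known.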

Additional observations from a re-analysis of the deposited data

Results flagged for a closer look

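The genes below, among those named by rule, had differences of opposite sign with empty vector and with MyoD, each with 1 sign on every slide. In none did the interaction pass the threshold. The interaction, as the MyoD difference minus the empty-vector difference in log2, was 1.78 for Stac, 1.36 for Cldn5 and 0.95 for Adamts4, where the empty-vector difference was the lower of the pair. It was -0.98 for Tead4, -3.72 for Cacng1, -1.16 for Itga6, -1.37 for Itgb6, -4.03 for Trim25 and -0.40 for Cyc1, where the empty-vector difference was the higher. Stac and Itga6 were called with empty vector; the others were not. Cacng1 and Trim25 were well above background on 0 of the shLuc and 1 of the shSix4 empty-vector arrays, and with 1 array left out their empty-vector differences ranged from 0.50 to 3.20 and from 0.42 to 2.09, lowest without shSix4 replicate 2. Itgb6 was above background on 2 arrays of each empty-vector group. Cldn5 and Stac were above it on 1 of 3 shSix4 empty-vector arrays.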

How the results depend on the processing

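In the fit without the replicate block 6 genes were lower and 1 higher, and with the block as a random effect 94 were lower. On the 6 empty-vector arrays alone the counts were 0 and 0, after normexp 0 and 0, without the filter on dim probes 14 and 5, and in the authors' table, with 2638 genes tested, 18 and 8. With probes above background on all 6 arrays 29 were higher. Leaving out an array or a slide gave 0 to 382 lower and 0 to 66 higher genes, and 0 to 1 interaction calls. The interaction called 3 genes with a random block, 2 after quantile normalization and 1 in the authors' table. Normexp left 2370 genes with 1 direction on all slides and the authors' values left 950, against 4019. Six4 ranged from -1.33 to -0.65, with adjusted p 0.0868 to 0.999, and passed in none of 19 alternatives.

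Normexp used the median signal and an offset of 50. Among the genes named by rule, it turned the sign of Ugt2b37 (-0.16), L1cam (-0.18), Kirrel3 (-0.092), Nipal1 (-0.21), Tead4 (-0.11), Cacng1 (-0.13), Itgb6 (-0.52), Lpl (-0.38), Papss2 (-0.089), Cd3e (-0.17), Tek (-0.30), Gap43 (-0.076), Trim25 (-0.49), Gsta1 (-0.18), Gsta2 (-0.40), Atf3 (-0.10), Axin2 (-0.42), Btc (-0.20), Ccl5 (-0.33), Bspry (-0.59), Dnajb1 (0.057), Hspa1a (0.09), Ndufs1 (0.13) and Tnrc6b (0.11). Of the other called genes it turned Mtcl1 (-0.13). The authors' table turned Abcc1 (-0.17), Fgfr2 (1.02) and the called gene Rprd1a (0.025). Left-out arrays put Bspry between -0.19 and 0.20 (0.03 with all). The causes were not tested. Of the 3278 values of single genes and lists, 2847 kept direction and side of the threshold, or for lists moved by less than the spread between slides.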
